A study of Mus musculus with 8 samples.

Results

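The m6A reader genes are the 8 genes Ythdf1, Ythdf2, Ythdf3, Ythdc1, Ythdc2, Igf2bp1, Igf2bp2 and Igf2bp3, whose proteins bind mRNA that carries N6-methyladenosine (m6A). Their own transcripts were followed here through an immunoprecipitation of one of these proteins, YTHDF3. A peak was assigned to a gene by the gene name that the deposited lists give it, and 36 of 87096 peaks carried the name of a reader gene. These 36 peaks belonged to 4 of the 8 genes and formed 17 of the 39979 regions obtained by merging peaks that overlapped between libraries. YTHDF3 RIP-seq was done on wild type C57BL/6 mouse embryonic fibroblasts (MEFs), derived from embryos 13.5 days after conception and used at passages 5 to 6. The normal group was left untreated and the starved group spent 2 h in a nutrient-deprived medium, with 2 replicates each, and the comparison asks which RNAs YTHDF3 binds differently when nutrients are short. Each replicate gave an IP library, pulled down with an antibody to endogenous YTHDF3, and an input library made without antibody, all from polyA RNA. The study describes its cell culture experiments in general as done on separate days, without naming the cultures or embryos behind the 2 RIP-seq replicates, and the sample labels do not give them, so p-values measure the spread between these samples.

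m6A is written on nascent mRNA by a methyltransferase complex built around METTL3 and METTL14, often within a GGAC sequence, and can be removed by FTO and ALKBH5. YTH domain proteins hold the methylated base in a pocket of the YTH domain. YTHDF2 is known for recruiting the CCR4-NOT deadenylase to bound mRNA, YTHDF1 and YTHDF3 for roles in translation and decay in the cytoplasm, YTHDC1 for nuclear splicing and export, and YTHDC2 for its RNA helicase activity in germ cells. The IGF2BP proteins bind mRNA through KH domains and are known for stabilizing it.

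Of the 8 genes, only Ythdf2 had regions called in all 4 IP libraries, and it had 3 of them, at exon 1, exon 3 and exon 4. Called means an IP/input fold of at least 2 with a diffReps p under 0.0001. The share of all named genes with such a region was not computed. By region, 17.6% of those named for readers were called in all 4 libraries, beside 16.3% of all regions. The folds of the 3 Ythdf2 regions lay between 2.05 and 2.72 in the 4 libraries. None of the 3 passed a test of starved against normal MEFs, for the IP/input ratio, the IP or the input. Ythdf1 and Ythdf3 each had a large region over exon 4 that was called in 3 of the 4 libraries, and Ythdc2 had 1 small peak in 1 library. The names of the lists gave Igf2bp1 no peak, although 21 peaks lay on its exons under the name of a microRNA gene inside it. No peak was named for, or lay on an exon of, Ythdc1, Igf2bp2 or Igf2bp3.

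The sequences that carried the regions are shown first, since exon 4 was the common element of the Ythdf paralogs. Exon 4 holds most of the coding sequence of each Ythdf gene, including much of the YTH domain. The 100-base coding stretch with the most GGAC (capitals) inside the exon 4 regions of Ythdf2 and Ythdf1 was read 5′ to 3′ on the transcribed strand of mm10.
Ythdf2, chr4:132204381-132204480, minus strand, coding bases 1368 to 1467: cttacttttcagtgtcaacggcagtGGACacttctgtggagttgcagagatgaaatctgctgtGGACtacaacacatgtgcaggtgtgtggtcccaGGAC
Ythdf1, chr2:180910936-180911035, minus strand, coding bases 1305 to 1404: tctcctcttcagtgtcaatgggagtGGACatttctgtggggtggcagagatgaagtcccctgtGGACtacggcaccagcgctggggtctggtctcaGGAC

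The stretches of Ythdf1 and Ythdf2 were found separately and turned out to be the same place in the YTH domain, with 79 of 100 aligned bases identical and all 3 GGAC at the same positions. The stretch of Ythdf3 that aligns with them likewise shared 79 of 100 bases with Ythdf2 but held 1 of the 3 GGAC, and is shown for that comparison.
Ythdf3, aligned with the Ythdf2 stretch, chr3:16205076-16205175, plus strand, coding bases 1386 to 1485: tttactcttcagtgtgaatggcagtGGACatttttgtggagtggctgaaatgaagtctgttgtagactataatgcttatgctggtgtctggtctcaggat

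The coding parts of all regions called in all 4 libraries were tiled into 22770 windows of 100 bases. Of these, 42.6% held at least 1 GGAC, 11% at least 2 and 1.86% at least 3. The windows were fixed tiles, whereas the Ythdf1 and Ythdf2 stretches were the richest of all positions in their regions. Their 3 GGAC can therefore not be ranked against these shares. The Ythdf3 stretch lay inside the peak of starved replicate 1 and outside those of the other 2 libraries that called exon 4. The Ythdf1 stretch lay in full inside the peaks of the 3 libraries that called exon 4. The Ythdf2 stretch lay at the edge of its region, with 100 bases inside the peak of starved replicate 1, 20 in starved replicate 2, 10 in normal replicate 2 and none in normal replicate 1. The part of Ythdf2 exon 4 that the peaks of all 4 libraries shared was 640 bp of coding sequence with 3 GGAC, or 4.69 per kb. No stretch of 100 bases in this part held more than 1, and the first that held 1 is shown.
Ythdf2, shared part, chr4:132204923-132205022, minus strand, coding bases 826 to 925: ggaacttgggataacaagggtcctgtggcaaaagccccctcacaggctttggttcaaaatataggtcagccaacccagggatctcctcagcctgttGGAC

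GGAC was counted on the transcribed strand over the whole coding part of the exon 4 regions. It occurred 10 times in 1521 bp of Ythdf1 (6.57 per kb), 9 times in 1345 bp of Ythdf2 (6.69 per kb) and 7 times in 1425 bp of Ythdf3 (4.91 per kb). Over the coding parts of all regions called in all 4 libraries the density was 5.75 per kb, and on the opposite strand 4.18 per kb. The 3 paralogs stood at the 62.2, 63.5 and 45.2 percentile of the 3109 regions with at least 200 coding bases, so they lay near the middle. The opposite strand of the 3 exon 4 regions held 3.94, 4.46 and 1.40 GGAC per kb, which was lower than the transcribed strand in each.

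The coding sequences of the 3 paralogs were 72.1% to 73.0% identical in pairs, and the longest run of identical bases was 22 bp, between Ythdf1 and Ythdf2. Ythdf2 exon 4 also had 2 near-identical copies on the X chromosome, the processed pseudogenes Gm6823 (chrX:70420979-70422323) and Gm8401 (chrX:70517908-70519252). They matched 1346 bp at 96.1% identity each, with identical runs of up to 124 and 102 bp, and no peak was called on either. How reads that fit more than 1 place were counted is not given in the sources used here, so the reads of Ythdf2 exon 4 are uncertain to that extent. No match elsewhere was found for the Ythdf1 and Ythdf3 exon 4 regions or for Ythdf2 exon 1. Ythdf2 exon 3 had 2 matches elsewhere, of at most 82 bp and at up to 96.3% identity. The reads over these matches are uncertain in the same way. The coding exon is 80 bp long, and 430 of the 510 bp of the region are intron.

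The peak lists differed in size. Between 17364 and 24701 peaks per library passed the thresholds, with 8818619 to 19271667 IP reads and 2507434 to 5157523 input reads inside them. Library depth is unknown, since no reads outside of called peaks are listed. Of 10 fibroblast markers 7 had a named peak, 4 had a peak on an exon and 1, Pdgfrb, had regions called in all 4 libraries. Fn1, Thy1 and Lox had 1 named peak each, in 1 library, and Col1a1, Vim and Dcn had none. Summed input reads of the named peaks were 5006 to 15806 in normal and 5164 to 17641 in starved libraries. Most of the highest sums came from 1 gene, with 10423 reads of Col1a2 in normal replicate 1 and 12428 of Col3a1 in starved replicate 2. None of 14 markers of epithelium, leukocytes, endothelium, neurons, muscle and pluripotent cells had a peak in any library.

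Named reader peaks numbered 7 and 11 in normal replicates 1 and 2, and 7 and 11 in starved replicates 1 and 2. These totals were equal in both conditions of a replicate number. All kept peaks numbered 17364 and 21943 in normal replicates 1 and 2, and 23088 and 24701 in starved replicates 1 and 2. Ythdf2 had 3, 5, 3 and 5 peaks in this order of libraries, Ythdf3 had 3, 3, 2 and 4, and Ythdf1 had 1, 2, 2 and 2. Of the 17 named regions, 8 were called in 1 library, 2 in 2, 4 in 3 and 3 in all 4. The share called in all 4 was 17.6%, beside 16.3% of all regions, and the share called in 1 library was 47.1%, beside 49.0%.

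**Figure D1:**
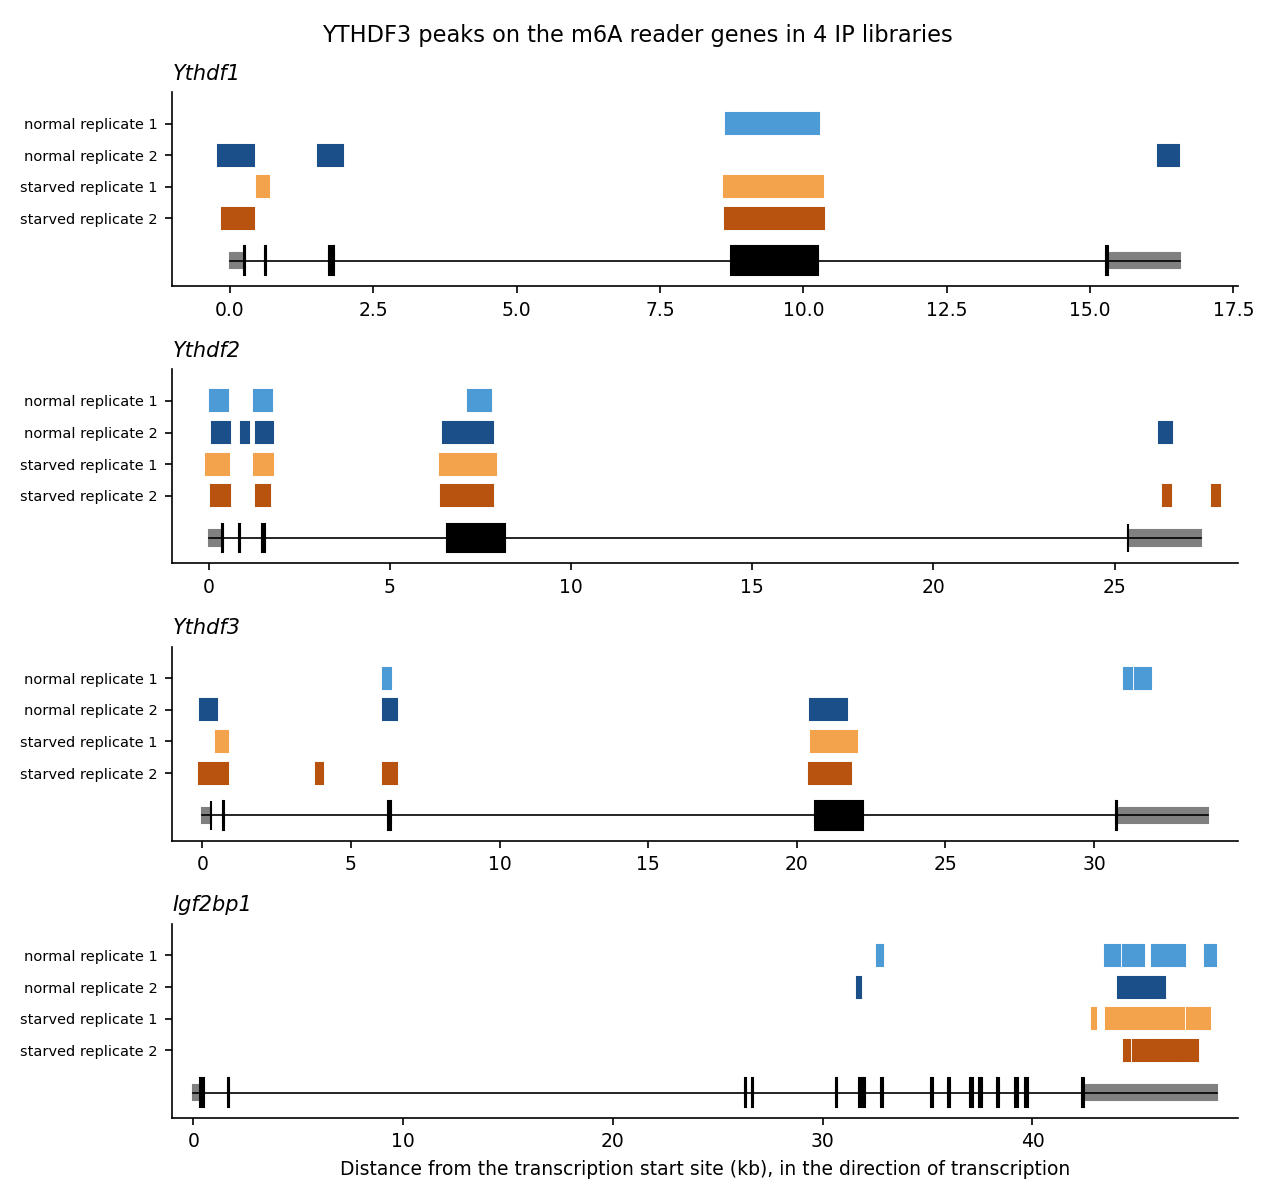
Peaks on Ythdf1, Ythdf2, Ythdf3 and Igf2bp1 in the 4 IP libraries (colored bars, 1 row per library), against distance from the transcription start site in kb. Thin grey boxes are untranslated exons and tall black boxes coding exons. Ythdf peaks gathered at the 5′ end, exon 3 and exon 4, whereas most Igf2bp1 peaks lay in its long last exon.

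The 3 Ythdf genes have the same plan of 5 exons, and the gene maps show peaks at the same 3 places. These are the 5′ end, the short coding exon 3 and the long coding exon 4. Peaks in the 3′ UTR were small and called in 1 or 2 libraries. For Ythdf2 all 3 places were called in every library. For Ythdf3 each of them was called in 3 libraries, missing normal replicate 1 at the 5′ end and at exon 4, and starved replicate 1 at exon 3. For Ythdf1, exon 4 was called in 3 libraries, the 5′ end in both libraries of replicate 2, and exon 3 in normal replicate 2 alone.

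The fold of these peaks was modest. The 36 named peaks had a median IP/input fold of 2.60, from 2.05 to 5.67, and 26 of them (72.2%) lay under 3, beside 47.8% of all kept peaks, whose median was 3.05. Their read numbers were high, with a median of 361.5 IP reads (12 to 4654) beside 113 for all peaks. Only 6 of the 36 (16.7%) reached a fold of 4, beside 26.9% of all peaks. In 5 of the 36 the input held fewer than 3 reads, and the fold was computed against 3 reads.

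Ythdf2, which encodes a decay factor, gave the best measured regions. Its exon 4 region spanned chr4:132204371-132205930, with 1345 bp of coding sequence and 215 bp of flanking intron. The peak covered 640 bp in normal replicate 1, 1380 bp in normal replicate 2, 1560 bp in starved replicate 1 and 1440 bp in starved replicate 2, so the region was narrowest in normal replicate 1. In normal replicate 1 it held 640 IP and 228 input reads, and in normal replicate 2 it held 1961 and 921. The starved replicates held 2618 IP and 449 input reads in replicate 1 and 2572 and 722 in replicate 2. The IP/input fold, corrected by the factors the authors used for each library, was 2.26 and 2.13 in the normal and 2.5 and 2.37 in the starved replicates. Both starved folds were thus above both normal folds, with means of 2.20 ± 0.0951 and 2.44 ± 0.0877 (SD, n = 2). The increase was 1.10-fold in replicate 1 and 1.12-fold in replicate 2, far from the cutoff of 1.8. Among all 6531 regions called in every library, 28% had a higher fold after starvation in both replicates and 25.4% a lower one, so a shift of this kind was common.

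The exon 3 region of Ythdf2 spanned chr4:132210531-132211040, and 430 of its 510 bp were intron around the 80 bp coding exon. It held 253 IP and 75 input reads in normal replicate 1, and 231 and 99 in normal replicate 2. In the starved replicates 343 and 262 IP reads stood against 60 and 85 input reads. The fold was 2.72 and 2.33 in the normal and 2.45 and 2.05 in the starved replicates. It was lower after starvation within both replicates (0.901-fold and 0.881-fold), but the 2 groups overlapped, with means of 2.53 ± 0.274 and 2.25 ± 0.279 (SD, n = 2).

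At the 5′ end of Ythdf2 the region spanned chr4:132211711-132212380. It covered 377 bp of 5′ UTR, 27 bp of coding sequence, 189 bp of intron and 77 bp upstream of the annotated start. There were 484 IP and 146 input reads in normal replicate 1, 529 and 253 in normal replicate 2, 788 and 141 in starved replicate 1, and 653 and 186 in starved replicate 2. The fold was 2.67 and 2.09 in the normal and 2.40 and 2.34 in the starved replicates. Both starved values fell between the normal ones, and the direction differed between replicates (0.896-fold and 1.12-fold). Of all regions called in every library, 14.7% covered the start of an annotated principal transcript.

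**Figure D2:**
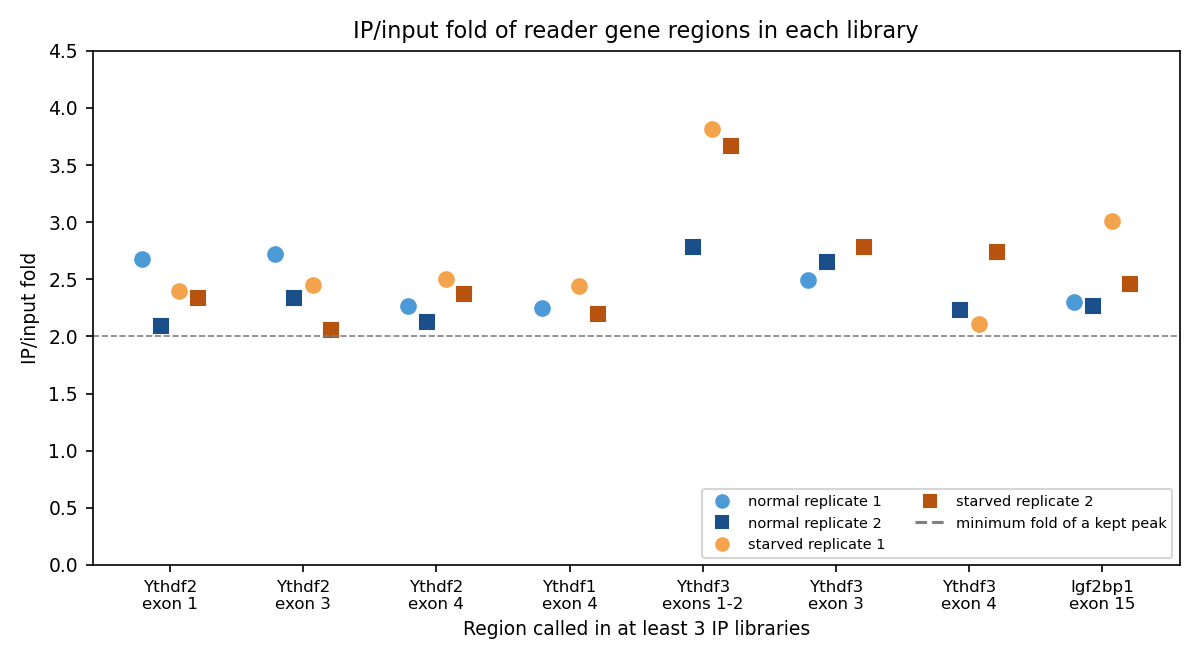
IP/input fold (linear axis from 0) of each reader gene region called in at least 3 IP libraries, with 1 point per library, circles for replicate 1 and squares for replicate 2. The dashed line marks the minimum fold of 2 for a kept peak. Most points lay between 2 and 3, and the exons 1-2 region of Ythdf3 reached 3.81.

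None of the 3 Ythdf2 regions changed its fold by 1.8-fold in both replicates, beside 0.551% of all 6531 regions. The same regions were tested with edgeR's quasi-likelihood test on reads, with Benjamini-Hochberg adjustment over all 6531 regions. The log2 change of the IP/input ratio, starved against normal, was 0.12 (SE 0.200) at exon 4, −0.20 (SE 0.278) at exon 3 and −0.02 (SE 0.235) at exon 1. Each had an adjusted p of 0.999, and none passed at an unadjusted p of 0.05 or in DESeq2. In the whole series this test called 0.0153% of the regions, that is 1 region. A change that misses the threshold with 2 replicates is not shown to be absent, and at exon 4 the SE exceeded the change itself.

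The IP/input ratio can stay level while both of its parts move, so IP and input were also compared on their own, as reads per covered base. IP reads per base changed by −0.06 on the log2 scale at exon 4 (SE 0.214, adjusted p = 0.964), by −0.17 at exon 3 (SE 0.229, adjusted p = 0.886) and by −0.35 at exon 1 (SE 0.208, adjusted p = 0.672; edgeR). Input reads per base changed by −0.19 at exon 4 (SE 0.266, adjusted p = 0.920), by 0.04 at exon 3 (SE 0.354, adjusted p = 0.991) and by −0.33 at exon 1 (SE 0.286, adjusted p = 0.876; edgeR). None of the 6 tests passed, and none had an unadjusted p under 0.05 in edgeR or in DESeq2. Over all regions, IP reads per base were called higher in 0.184% and lower in 0.934%, and input reads per base higher in 0.214% and lower in 0.766%. In such bulk RNA, fewer cells with a transcript and less of it per cell cannot be told apart.

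Per covered base, 2 of the 3 Ythdf2 regions were well above the typical region. Exon 4 stood at the 87.5 percentile of IP reads per base and at the 91.0 percentile of input reads per base among the 6531 regions, and exon 1 at the 82.6 and 86.9 percentile. Exon 3 was nearer to the middle, at the 60.7 percentile for IP and the 68.3 percentile for input. Their mean fold over the 4 libraries stood at the 4.5 percentile for exon 4, the 6.71 percentile for exon 1 and the 7.33 percentile for exon 3. All 3 folds were thus near the bottom of the range, whereas the read density was high for exons 1 and 4 and moderate for exon 3. The rest of Ythdf2 gave 3 regions of few reads. They were 1 in the 3′ UTR called in both libraries of replicate 2 (39 IP and 7 input reads in normal, 16 and 0 in starved), 1 in intron 2 in normal replicate 2 and 1 past the annotated end in starved replicate 2.

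**Figure D3:**
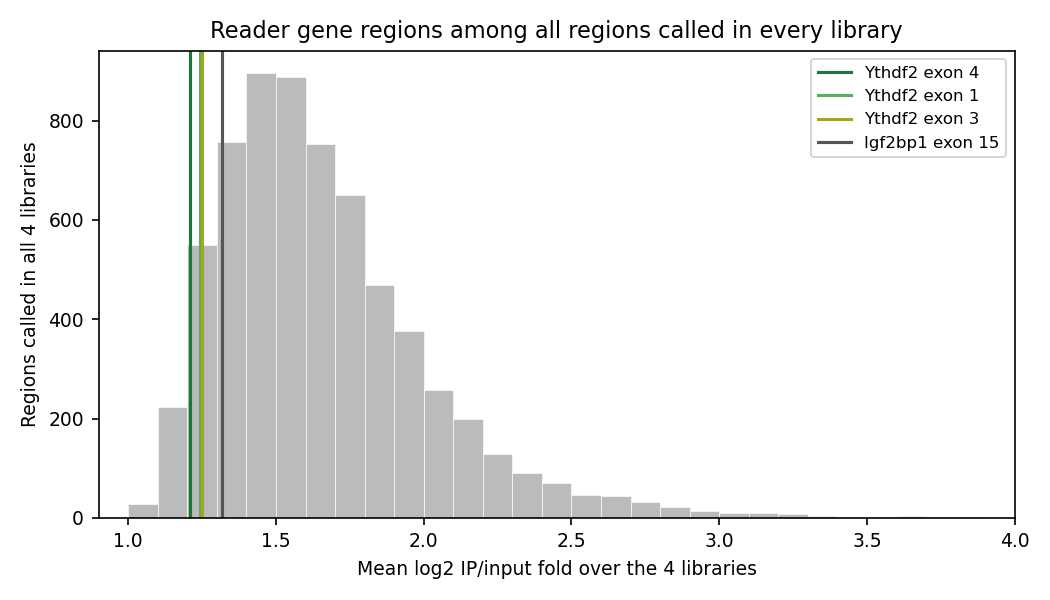
Distribution of the mean log2 IP/input fold over the 4 libraries for the 6531 regions called in every library (grey bars, bins of 0.1), with the 3 Ythdf2 regions and the exon 15 region of Igf2bp1 as vertical lines. The lines lay between 1.21 and 1.32, left of the median of 1.59. The axis ends at 4 and leaves out 3 regions.

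Ythdf1, a cytoplasmic reader linked to translation, had its main region over exon 4 at chr2:180910591-180912330. The region held 2663 IP and 956 input reads in normal replicate 1, 4654 and 816 in starved replicate 1, and 3896 and 1183 in starved replicate 2. Normal replicate 2 had no peak there, and its reads in this place are not in the lists. The fold was 2.25 in normal replicate 1, 2.44 in starved replicate 1 and 2.20 in starved replicate 2, so the normal value lay between the starved ones. Per kb of covered sequence it was the densest of the reader regions in each library that called it, with 1654, 2690 and 2265 IP reads per kb. Fitted without normal replicate 2, over 7977 regions, the log2 change of the IP/input ratio was 0.04 (SE 0.233, adjusted p = 1, edgeR), and that of IP reads per base was −0.12 (SE 0.310, adjusted p = 0.982, edgeR). This fit and those of Ythdf3 below have a single normal library, which is assumed to vary like the starved ones.

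The 5′ end of Ythdf1 (chr2:180920521-180921150) was called in replicate 2 of both conditions and showed the widest difference in fold of any reader region. Normal replicate 2 had 380 IP and 73 input reads over 630 bp, and starved replicate 2 had 615 and 187 over 560 bp. The fold was 5.21 in normal and 2.19 in starved MEFs, a change of 0.421-fold. Relative to the median region, IP reads per base were higher in the starved library by 0.42 on the log2 scale and input reads per base by 1.77, so the lower fold came with more reads in both. Neither library of replicate 1 had a peak there, and the difference has no replicate check. Starved replicate 1 had a separate small peak around exon 2 (52 IP and 5 input reads). Exon 3 of Ythdf1 was called in normal replicate 2 alone (149 IP and 55 input reads). A further peak of that library, in the Ythdf1 3′ UTR (107 IP and 50 input reads), carried the name Mir124a-3 in the lists and is not among the 36.

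Ythdf3 encodes the protein that was precipitated. Its exon 4 region (chr3:16203631-16205250) held 2034 IP and 913 input reads in normal replicate 2, 2180 and 444 in starved replicate 1, and 2741 and 667 in starved replicate 2. The fold was 2.23 in the normal replicate and 2.10 and 2.74 in the starved ones, so the normal value again lay between the starved values. In replicate 2, where both conditions were called, the fold was 1.23-fold higher after starvation. Without normal replicate 1, over 8918 regions, the log2 change of the IP/input ratio was 0.12 (SE 0.241, adjusted p = 1, edgeR). IP reads per base changed by −0.45 (SE 0.327, adjusted p = 0.878) and input reads per base by −0.58 (SE 0.347, adjusted p = 0.977) in the same edgeR fits.

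Exon 3 of Ythdf3 (chr3:16189291-16189770) was covered by 65 IP and 21 input reads in normal replicate 1, 188 and 71 in normal replicate 2, and 213 and 51 in starved replicate 2. The fold was 2.5 and 2.65 in normal and 2.78 in starved MEFs. As in Ythdf2, most of the region was intron (394 of 480 bp) around a coding exon of 86 bp.

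At the 5′ end of Ythdf3 (chr3:16183101-16184080) there were 506 IP and 182 input reads in normal replicate 2, 89 and 10 in starved replicate 1, and 885 and 161 in starved replicate 2. The fold was 2.78 in normal and 3.81 and 3.66 in starved MEFs, the highest among reader regions called in at least 3 libraries. Both starved folds were above the single normal one. The peaks did not cover the same sequence, however. That of normal replicate 2 lay over exon 1 and that of starved replicate 1 over exon 2, and both lay inside the longer peak of starved replicate 2. Without normal replicate 1 the log2 change was 0.37 for the IP/input ratio (SE 0.318, adjusted p = 1, edgeR) and −1.04 for IP reads per base (SE 0.337, adjusted p = 0.0834, edgeR). That of input reads per base was −1.32 (SE 0.637, adjusted p = 0.931, edgeR), and the normal arm of these fits is again the 1 library. The other Ythdf3 peaks were 2 in the 3′ UTR, in normal replicate 1, with folds of 2.65 and 2.55, and 1 in intron 2, in starved replicate 2, with 24 IP and 2 input reads.

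**Figure D4:**
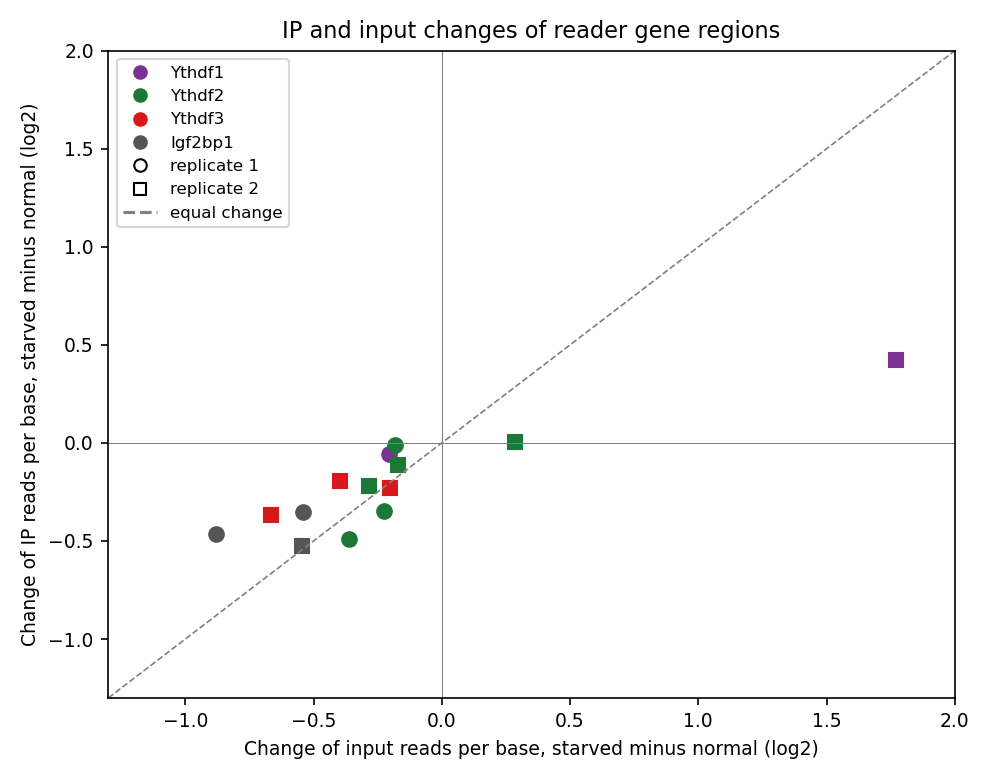
Change of IP reads per base (vertical) against change of input reads per base (horizontal), starved minus normal in log2 units within a replicate number, relative to the median region. The 14 points are reader gene regions called in both conditions of a replicate with at least 3 input reads, circles for replicate 1 and squares for replicate 2. On the dashed line IP and input changed equally. IP reads per base were lower after starvation in 12 of the 14 points and input reads per base in 12, and the point at the far right is the 5′ end of Ythdf1.

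Over the 10 regions that could be compared within a replicate, IP and input mostly shifted together, as the plot of both changes shows. IP reads per base were lower after starvation in 12 of 14 comparisons, input reads per base in 12 of 14, and the fold was higher in 10 of 14. Over all 6531 regions, IP reads per base were higher in 51.3% in replicate 1 and 50.0% in replicate 2, input reads per base in 52.9% and 50.8%, and the fold in 43.0% and 59.6%. The 6531 regions were all called in every library, whereas some of the 10 reader regions were not, so the 2 sets differ. The 14 comparisons share libraries and genes, and no test was made on the count.

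Ythdc2, the helicase of the family, had a single peak over exon 28, with 12 IP reads and no input read in normal replicate 2. Against 3 input reads its fold was at least 4. Ythdc1, the nuclear reader, had none. At the depth of these lists, the lack of a peak says that no window passed the thresholds, and does not show that YTHDF3 left the transcript unbound.

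Igf2bp1, a KH domain protein of embryonic tissues, had 21 peaks on its exons, namely 8 in normal replicate 1, 4 in normal replicate 2, 5 in starved replicate 1 and 4 in starved replicate 2. All 21 were named Mir3063 in the lists, after a microRNA gene whose start is nearer to them than that of Igf2bp1. By exon overlap in place of names, Igf2bp1 was therefore the second reader gene with a region called in every library. That region lay in the 3′ UTR (exon 15) at chr11:95958031-95962480. The 30-base site with the most GGAC in it, 2 in number, is shown with GGAC in capitals. It lay in full inside a peak of normal replicate 2 and of both starved replicates, but in no peak of normal replicate 1.
Igf2bp1 3′ UTR, chr11:95960493-95960522, minus strand: gtgacaagGGACctgaaaacttacatGGAC

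Over the whole 4450 bp the transcribed strand held 20 GGAC (4.49 per kb) and the opposite strand 21 (4.72 per kb), so no strand was richer by more than 1. The region was made of 5, 3, 2 and 4 peaks in normal replicates 1 and 2 and starved replicates 1 and 2, which covered 3170, 2210, 4190 and 3290 bp of it. Normal replicate 1 had 1506 IP and 528 input reads there, and normal replicate 2 had 1409 and 621. The starved replicates had 2439 and 1976 IP reads against 347 and 536 input reads. The fold was 2.30 and 2.27 in the normal and 3.01 and 2.46 in the starved replicates. Both starved folds lay above both normal folds, with means of 2.28 ± 0.0221 and 2.74 ± 0.392 (SD, n = 2), and replicate 1 differed more (1.31-fold) than replicate 2 (1.08-fold).

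In edgeR the log2 change of the IP/input ratio of the Igf2bp1 region was 0.22 (SE 0.21, adjusted p = 0.999). IP reads per base changed by −0.49 (SE 0.206, unadjusted p = 0.0448, adjusted p = 0.462) and input reads per base by −0.70 (SE 0.276, unadjusted p = 0.0314, adjusted p = 0.509) in edgeR. Neither passed the adjusted threshold in this fit, which has no term for the replicate number. Input reads per base relative to the median region were 0.68 and 0.92 in the normal and −0.20 and 0.38 in the starved replicates on the log2 scale. The 2 groups did not overlap, and the same held for IP reads per base (0.43 and 0.63 against −0.04 and 0.10). These values come from different stretches, as the peaks covered 3170 and 2210 bp in the normal and 4190 and 3290 bp in the starved replicates. How far the unequal cover lowered the starved values was not tested. Peaks on exons 6 and 7 of Igf2bp1 were called in normal replicates 2 and 1, with 91 and 84 IP reads.

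The genes around the readers were followed as a list of 27 writers, erasers and other RNA-binding proteins linked to m6A. Of these, 14 had a named peak in at least 1 library, namely 6 of 11 writers and their partners, both erasers and 6 of 14 other proteins. Of the 27, 5 had a region called in all 4 libraries. They were the writer partners Rbm15 and Rbm15b, the eraser Alkbh5, the binding protein Prrc2a and Cnot1, the scaffold of the CCR4-NOT complex. Of the 43 regions of the list, 12 were called in all 4 libraries, beside 16.3% of all regions. The matching shares over all genes were not computed. None of the 12 regions passed the edgeR test of the IP/input ratio, of IP reads per base or of input reads per base, and none changed 1.8-fold in both replicates. The fold was higher after starvation in both replicates in 5 of the 12 and lower in both in 2, beside 28% and 25.4% of all 6531 regions. The mean log2 change of the 2 replicates had a median of 0.06 over the 12 regions, beside 0.01 over all.

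The extremes of this list were small as well. Cnot1 (chr8:95806981-95808190) had folds of 3.30 and 2.25 in normal and 2.86 and 2.12 in starved MEFs. Its region also carried a second gene name in the lists, 4930513N10Rik. One Alkbh5 region (chr11:60547461-60548000) had folds of 2.63 and 3.98 in normal and 2.57 and 3.34 in starved MEFs. On the other side, Prrc2a (chr17:35164501-35165050) had 3.24 and 3.24 in normal and 3.10 and 4.18 in starved MEFs. A region named for Alkbh5 but beyond its annotated end (chr11:60581551-60582330) had 2.87 and 3.69 in normal and 4.14 and 3.86 in starved MEFs, and was the only one of these 4 whose groups did not overlap.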

How the data were processed

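Reads were trimmed by the authors (Trimmomatic), mapped on mm10 (TopHat2 2.0.13) and called into peaks of every IP library over input (diffReps), and peaks took the name of the nearest gene (HOMER). The deposited IP and input values are a signal, the read number of a peak times a factor of its library, except for normal replicate 2, where the authors deposited counts. Dividing by these factors returned whole numbers of reads for 100% of the values. The p-values deposited by the authors come from diffReps, and their log2 ratios were not used.

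The reader genes, gene lists and settings were chosen with earlier results of these data known. Peaks with a fold of at least 2 and p under 0.0001 were kept, the thresholds of the study, and merged where they overlapped by at least 1 bp. A fold is summed IP over summed input reads times the factors, with at least 3 input reads. The input is not named in the lists, and the one with the same replicate number and treatment was assumed. For regions found in every list, edgeR 4.0.16 (R 4.3.3; quasi-likelihood, TMM, a term per culture for the ratio, covered length as an offset for reads per base) gave p-values with Benjamini-Hochberg adjustment, and DESeq2 1.42.0 was an alternative. The tests, the merging and the motif count were tested on simulated data. Of 200 simulated regions changed 2.5-fold, edgeR called 61% for the IP/input ratio, 99% for IP and 85.5% for input reads per base. With 2 replicates against 2, no permutation test can pass 0.05.

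All 8 reader genes were named, with every region called in all 4 lists. Of the 27 listed genes, regions that passed a test were to be named or, as none did, the 2 largest and 2 smallest changes. Regions of Ythdf1 and Ythdf3 called in fewer lists, and their sequences, were added after their values were seen. Exons came from the GENCODE annotation of mm10 and sequences from the RefSeq copy of that assembly. Copies were searched with blastn 2.17.0. Python 3.11.15 with pandas 2.3.3, numpy 2.4.6, pysam 0.24.0 and Biopython 1.88 served the rest. Alternatives covered the fold threshold, the overlap, the floor, the fold change cutoff, scaling, read filters, normalization, a replicate block, exon overlap and leaving out each replicate.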

Additional observations from a re-analysis of the deposited data

How the results depend on the processing

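Reads are known inside called peaks alone, so a region missed by 1 library has no value there, and folds near 2 are limited by the threshold of calling. The number of reader genes with a region called in all 4 libraries was 1. It was 0 with peaks of at least 4-fold, where no reader region was left to test. It was 2 when members were taken by exon overlap, which adds Igf2bp1. With a 50% reciprocal overlap it stayed 1, but 2 regions were left, Ythdf2 exons 1 and 3. Neither Ythdf2 exon 4 nor the Igf2bp1 3′ UTR region was then called in all 4 libraries. Leaving out 1 library gave 1 to 2 genes: it was 2 without normal replicate 1 (Ythdf3 added), without normal replicate 2 (Ythdf1 added) and without starved replicate 1 (Ythdf3 added). The number of reader regions with a 1.8-fold change was 0 under 7 alternatives that kept both replicates, and 0 to 1 with 1 replicate alone, the 1 being the Ythdf1 5′ end without replicate 1. No reader region named in the lists passed the adjusted threshold under any alternative in edgeR or DESeq2. At an unadjusted p under 0.05 there was 1 for IP reads per base with the replicate block and 1 without normal replicate 1, and 0 otherwise.

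The log2 change of the IP/input ratio ranged from 0.03 to 0.24 at Ythdf2 exon 4, from −0.38 to 0.0097 at exon 3 and from −0.19 to 0.19 at exon 1 when 1 replicate was left out. IP reads per base ranged from −0.19 to 0.10 at exon 4, and input reads per base from −0.41 to 0.0297 at exon 4 and from −0.19 to 0.23 at exon 3. Each of these turned direction except the ratio at exon 4, and the cause was not tested. Libraries that share a replicate number are not said to share a culture. Their differences correlated across 6531 regions (r = 0.28 for the fold, 0.45 for IP and 0.31 for input reads per base). A replicate block left the 3 Ythdf2 regions at 0 calls in each test, and moved the calls over all regions from 73 to 650 for IP and from 64 to 258 for input reads per base. With exon overlap and the replicate block, chosen after seeing the data, the Igf2bp1 3′ UTR region was called in both (1 region each, log2 change −0.49 with adjusted p = 0.0275 for IP and −0.72 with adjusted p = 0.0398 for input, edgeR). Without the block its adjusted p lay at 0.46 and 0.51.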
